A study of Homo sapiens with 9 samples.

Results

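NUMB, NUMBL, MSI1 and MSI2 are the human Numb and Musashi genes, and they were found by gene symbol among the transcripts quantified in each library. They make up 4 of 58219 genes and 65 of 199324 transcripts, with 32 transcripts for NUMB, 11 for NUMBL, 3 for MSI1 and 19 for MSI2. RNA sequencing was done on MDA-MB-231, an established human breast cancer line that lacks the hormone receptors and HER2 amplification, in 3 groups of 3 libraries. The control cells carried a lentiviral scramble RNA. The shAPT1 cells carried a lentiviral short hairpin against APT1 (gene LYPLA1), an enzyme that removes palmitate from proteins, and were made stable by puromycin selection. The APT1wt cells stably expressed wild-type APT1 from a lentivirus. The study concerns how APT1 bears on the unequal division of Notch and Wnt signalling between daughter cells. No group with an empty overexpression vector is among the 9 libraries, so extra APT1 and the vector cannot be told apart in APT1wt. Whether replicate libraries were separate cultures is not stated in the labels, and each p-value covers only library-to-library spread, which may be technical.

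Numb proteins are adaptors that bring membrane receptors, Notch among them, to endocytosis, and they can be shared unequally between daughter cells. NUMBL is a close relative of NUMB. Musashi proteins bind short motifs in the 3′ untranslated regions of mRNAs and change their translation, and Numb mRNA is among their best known targets. MSI1 is known from neural and epithelial progenitors, and MSI2 from blood progenitors and several cancers.

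NUMB (ENSG00000133961.19) lies on the minus strand of chromosome 14 at chr14:73275107-73458617 (GRCh38, GENCODE 29). NUMBL lies at chr19:40665905-40690972 on the minus strand, MSI1 at chr12:120341330-120369180 on the minus strand, and MSI2 (ENSG00000153944.10) at chr17:57255851-57684685 on the plus strand. Coding NUMB transcripts differ by a pair of optional exons. The 33-base exon at chr14:73316390-73316422 adds residues to the phosphotyrosine-binding domain, and the 144-base exon at chr14:73279281-73279424 adds residues to the proline-rich region. The sequences below are shown because these exons define the NUMB forms measured here. The exon is in capitals, with 12 bases on each side, and the skipped form is the same junction without it. They are given 5′ to 3′ on the strand of the RNA, from GENCODE 29 transcripts.
NUMB 33-base exon included: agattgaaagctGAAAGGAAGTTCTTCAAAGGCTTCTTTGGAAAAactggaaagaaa
NUMB 33-base exon skipped: agattgaaagctactggaaagaaa
NUMB 144-base exon included: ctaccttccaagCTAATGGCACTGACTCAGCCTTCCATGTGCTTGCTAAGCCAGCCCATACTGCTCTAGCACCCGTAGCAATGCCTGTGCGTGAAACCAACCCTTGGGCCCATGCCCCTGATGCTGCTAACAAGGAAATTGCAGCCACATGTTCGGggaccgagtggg
NUMB 144-base exon skipped: ctaccttccaagggaccgagtggg

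MSI2-001 and MSI2-003, the main coding MSI2 transcripts in these files, share a coding exon up to a branch and then end differently. MSI2-001 (ENST00000284073.6, 6364 bases, 14 exons) goes on through a 63-base exon at chr17:57652099-57652161. MSI2-003 (ENST00000322684.7, 1860 bases, 10 exons) ends its coding part within a 38-base stretch at chr17:57631791-57631828. The bases after the branch are in capitals, since the transcripts differ there. Only the branch is compared here, not the earlier exons.
MSI2-001 exon after the branch: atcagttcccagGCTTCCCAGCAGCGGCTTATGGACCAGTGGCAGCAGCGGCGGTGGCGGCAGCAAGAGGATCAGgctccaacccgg
MSI2-003 coding end after the branch: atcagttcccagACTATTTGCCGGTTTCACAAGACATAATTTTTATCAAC

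The Musashi core motif was searched in the 3′ untranslated region of NUMB-003 (ENST00000557597.5), on the strand of the RNA only, as A or G, then a run of 1 to 3 T, then AGT (from GTAGT or ATAGT at the shortest to ATTTAGT at the longest). The 1362 bases held 4 matches. At least 1 match was present in 84.2% of 8290 windows of the same length from the 3′ untranslated regions of genes, 1 to a gene and NUMB included, and at least as many in 31.0%, so the count in NUMB was common. The matches are shown with the word in capitals, as the letters that a Musashi protein could meet in NUMB. Positions count from 1 at the first base after the stop codon.
NUMB word at 87: tgtctcctgATTAGTactcttttc
NUMB word at 402: ctcctgtcaGTAGTggcctgtat
NUMB word at 621: atattttaaATAGTtctcagata
NUMB word at 855: cactaggttGTAGTtttttttaa

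The libraries held 12381931 to 18667383 estimated reads, and 14134 to 15133 genes had at least 10 reads. LYPLA1, the check of the labels, stood at 87.1, 92.7 and 80.5 TPM (a level per transcript length and library depth) in control, at 38.2, 30.5 and 36.7 in shAPT1 and at 169, 171 and 170 in APT1wt. The summed level of 6 genes known to be high in this line (VIM, CD44, AXL, CAV1, LGALS1 and S100A4) was 4796 to 5706 TPM over all 9 libraries. By the test below, CAV1 rose in both engineered groups, AXL fell in both, CD44 fell in shAPT1 and VIM in APT1wt. The 6 genes known to be low or absent (ESR1, PGR, ERBB2, CDH1, EPCAM and GATA3) summed to 45.2 to 57.6 TPM. Most of that was ERBB2, with group means of 29.9 to 32.5 TPM, then EPCAM (8.68 to 10.3) and GATA3 (7.32 to 9.51), so these were expressed. CDH1, at a mean of 0.775 TPM in control, rose in both engineered groups, a call lost with an offset for transcript length. Calls below use an adjusted p under 0.05 from edgeR's quasi-likelihood test on summed reads, with Benjamini-Hochberg adjustment over 15233 genes.

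MSI2 was higher in shAPT1 and lower in APT1wt than in control, in estimated reads. The libraries held 61.0, 78.1 and 82.3 MSI2 reads in control, 204, 312 and 299 in shAPT1, and 18.0, 16.3 and 14.0 in APT1wt. Scaled to the library totals as RPM (reads in a common total, the same for every library), these were 4.63, 6.30 and 5.24 in control, 15.9, 18.0 and 17.7 in shAPT1, and 1.03, 1.31 and 0.750 in APT1wt. The 3 groups did not overlap: every shAPT1 library was above every control library, and every APT1wt library was below. Of all tested genes 37.7% had groups that did not overlap between shAPT1 and control, 44.2% between APT1wt and control, and 39.6% between shAPT1 and APT1wt.

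MSI2 rose by 1.65 ± 0.14 (log2 fold change ± SE, edgeR, adjusted p = 1.5e-06) in shAPT1, which is 3.14-fold in reads. In APT1wt it fell by 2.39 ± 0.21 on the log2 scale (edgeR, adjusted p = 1.7e-06), which is 5.26-fold. Between shAPT1 and APT1wt the difference was 4.05 ± 0.18 (edgeR, adjusted p = 3.3e-09). Of the 3 tested members, 2 passed in shAPT1 against control, where 24.4% of all tested genes did. In APT1wt against control 2 of 3 passed, beside 23.4% of all genes, and in shAPT1 against APT1wt 1 of 3, beside 25.1%. Among all tested genes 80 rose in shAPT1 and fell in APT1wt, 19 of them by at least 2-fold each way, and 8, MSI2 included, moved at least as far as MSI2 in both directions.

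**Figure D1:**
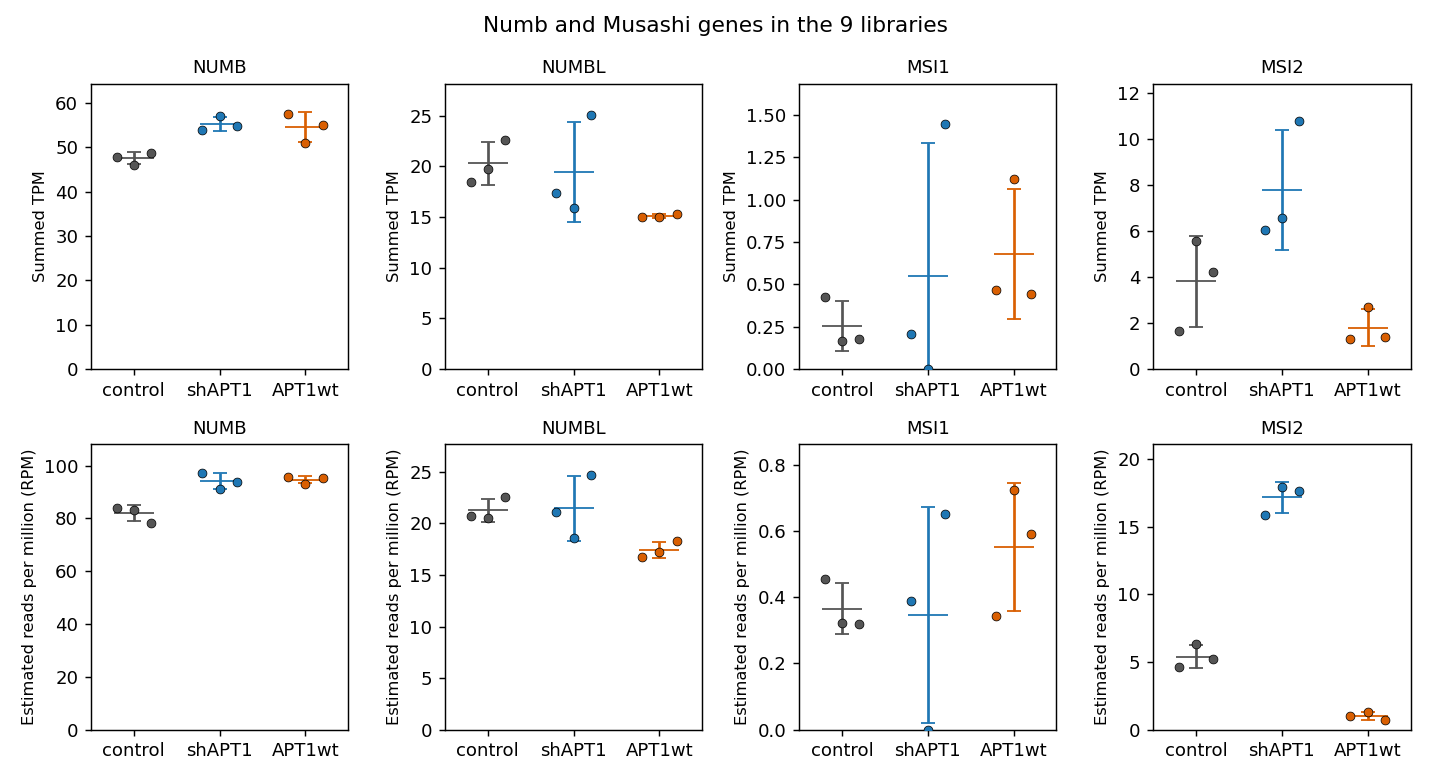
Levels of NUMB, NUMBL, MSI1 and MSI2 in the 9 libraries, as summed TPM (top row) and as estimated reads scaled to RPM (bottom row); points are libraries, bars the mean with SD (n = 3). MSI2 RPM values separate the 3 groups, from 0.750 to 1.31 in APT1wt and from 15.9 to 18.0 in shAPT1, while the summed TPM of MSI2 overlaps between control and APT1wt.

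The MSI2 call depended on whether transcript length entered the level. The summed TPM of MSI2 was 1.65, 5.57 and 4.21 in control, 6.05, 6.57 and 10.8 in shAPT1, and 1.31, 2.71 and 1.38 in APT1wt. On that scale the APT1wt libraries overlapped with control, whose first library was low, and the shAPT1 libraries stayed above control. With an offset for the mean transcript length the log2 fold change was 1.05 in shAPT1 (edgeR, adjusted p = 0.057) and -1.10 in APT1wt (adjusted p = 0.14). On log2 TPM with 0.5 added it was 1.03 (limma, adjusted p = 0.094) and -0.83 (adjusted p = 0.18). In the authors' deposited gene table, whose scaling is not given, it was 1.08 (limma, 1 added, adjusted p = 0.081) and -0.96 (adjusted p = 0.12). None of these passed, although the sign was the same in each. The deposited values of MSI2, from 25.9 to 197, ranked the 9 libraries as the summed TPM did, so that table is not a separate check. The difference between shAPT1 and APT1wt passed in all 20 alternatives, at log2 values of 1.86 to 4.20.

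The mean effective length of MSI2, weighted by TPM, was 3839, 1616 and 1764 bases in control, 3865, 3843 and 2369 in shAPT1, and 1116, 695 and 760 in APT1wt. The APT1wt libraries were all shorter than the control libraries, while shAPT1 and control overlapped. How many of all genes separate so in length was not counted. The log2 difference from control was 0.56 ± 0.39 in shAPT1 (limma, adjusted p = 0.92) and -1.40 ± 0.39 in APT1wt (adjusted p = 0.64). Of the 3 tested members 0 passed limma's test in any comparison, and at an unadjusted p under 0.05 there were 0 in shAPT1 against control, 1 in APT1wt against control and 1 in shAPT1 against APT1wt. Over all 15074 tested genes 0 passed in either comparison with control (0.0%) and 2 in shAPT1 against APT1wt (0.0133%).

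A few reads on short MSI2 transcripts made up much of the summed TPM. The 12 MSI2 transcripts under 800 bases held 0.171, 12 and 10.0 reads in control, 6.25, 6.87 and 21.5 in shAPT1, and 3.57, 6.53 and 4.76 in APT1wt. Those reads were 3.40%, 72.0% and 66.1% of MSI2 TPM in control, 31.1%, 27.7% and 53.4% in shAPT1, and 78.9%, 92.5% and 84.5% in APT1wt. The first control library, with the fewest such reads, also had the lowest MSI2 TPM of its group.

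MSI2-001 was the member transcript that passed the transcript test. Its level was 0.785, 1.04 and 0.829 TPM in control, 3.32, 3.53 and 3.31 in shAPT1, and 0.0892, 0.114 and 0.0485 in APT1wt. These values rest on 46.9, 55.8 and 56.8 reads in control, 179, 270 and 238 in shAPT1, and 6.81, 6.13 and 3.98 in APT1wt. The groups did not overlap on either scale, as was so in TPM for 19.2%, 20.5% and 19.4% of tested transcripts in the 3 comparisons. The mean TPM in shAPT1 was 3.83 times the control mean, and the control mean was 10.5 times that of APT1wt.

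The fitted log2 change of MSI2-001 was 1.88 ± 0.24 in shAPT1 (edgeR, adjusted p = 0.012 over 52392 transcripts) and -3.39 ± 0.28 in APT1wt (adjusted p = 0.0023). It was the 1 of 22 tested member transcripts that passed in each comparison, beside 1.62% of all tested transcripts in shAPT1, 1.43% in APT1wt and 1.3% in shAPT1 against APT1wt. In shAPT1 the call was lost without control replicate 1, 2 or 3 or shAPT1 replicate 2, where the adjusted p reached 0.067. In APT1wt it held in all 19 alternatives, TPM included.

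**Figure D2:**
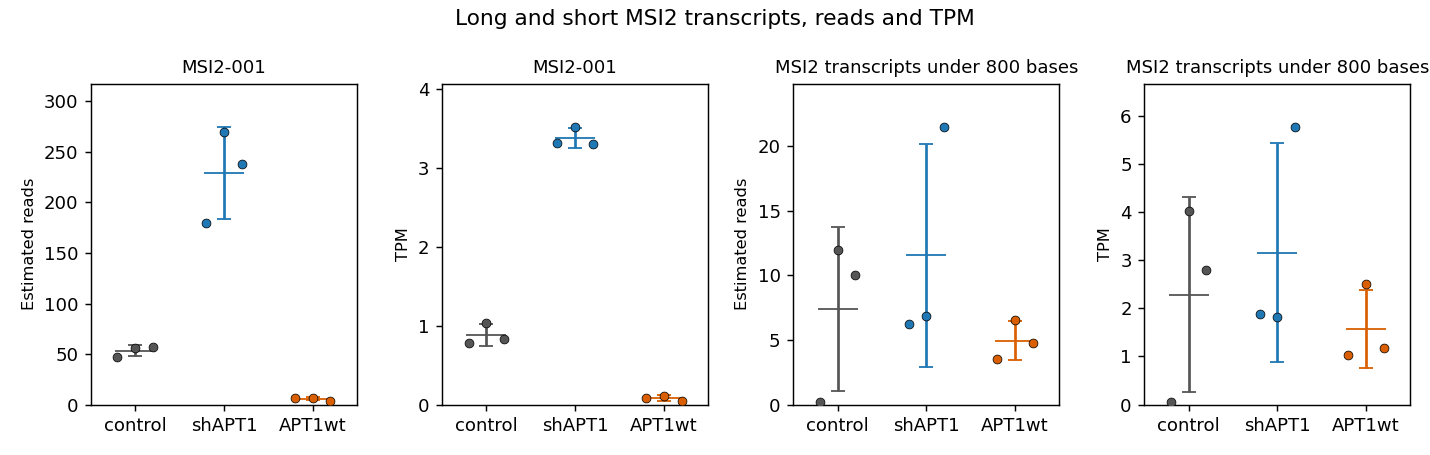
Estimated reads and TPM of MSI2-001 (2 panels on the left) and of the 12 MSI2 transcripts under 800 bases summed (2 panels on the right); points are libraries, bars the mean with SD (n = 3). MSI2-001 separates the groups on both scales, whereas the short transcripts, with 0.171 to 21.5 reads per library, overlap between groups and reach several TPM.

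MSI2-003, the shorter coding transcript, stood at 0.789, 0.285 and 0.488 TPM in control and at 0.484, 0.622 and 0.730 in shAPT1. In APT1wt the estimate was 0 in 2 libraries and effectively 0 in the other. The group sums were 26.0 reads in control, 34.3 in shAPT1 and none in APT1wt. Against a floor of 3 reads over the group, which covers counting error only, MSI2-003 was at least 10.2-fold lower in APT1wt than in control. The test of that difference missed the threshold (edgeR, adjusted p = 0.060), as did shAPT1 against control (adjusted p = 0.98). DESeq2 and TPM with 0.1 added did call the fall in APT1wt. MSI2-014, MSI2-018 and MSI2-013, noncoding transcripts of 496, 534 and 577 bases, reached 0.5 TPM in at least 1 group but did not pass the read filter. The remaining 14 MSI2 transcripts had group means of at most 0.432 TPM, and 7 were at 0 in every library.

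The share of MSI2 that carries the 63-base exon moved with the transcripts counted. Over all 19 transcripts, the 3 with the exon in their coding sequence (MSI2-001, MSI2-002 and MSI2-005) held 47.7%, 21.4% and 19.7% of MSI2 TPM in control, 55.0%, 60.0% and 38.8% in shAPT1, and 9.33%, 5.16% and 7.96% in APT1wt. APT1wt was below control in every library, with a mean difference of -22.1 percentage points. The exact permutation p was 0.1, the smallest that 3 against 3 allows. How often exon shares of other genes separate so was not counted. MSI2-013, which is noncoding, holds the exon too. With it counted, a choice made after seeing the data, the shares were 47.7%, 49.8% and 21.4% in control, 72.8%, 60.0% and 43.1% in shAPT1, and 9.33%, 15.0% and 7.96% in APT1wt. APT1wt was again below control in every library, by 28.8 percentage points on average (exact permutation p = 0.1), and shAPT1 overlapped with control (exact permutation p = 0.3). Over the 6 protein-coding transcripts alone, the mean was 64.5% ± 15.5 (SD, n = 3) in control and 75.7% ± 21.7 (SD, n = 3) in APT1wt, so the direction turned (exact permutation p = 0.6). In shAPT1 the mean for the coding exon was above control over all 19 and over the 6 transcripts, by 21.7 and 20.2 percentage points (exact permutation p = 0.2 and 0.1).

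Tested protein-coding genes beside MSI2 had smaller changes than MSI2 in each comparison. The 5 on each side had log2 changes of -0.48 to 0.47 in shAPT1, -0.24 to 0.11 in APT1wt and -0.40 to 0.72 in shAPT1 against APT1wt. In shAPT1 DGKE rose by 0.47 and TRIM25 fell by 0.28 on the log2 scale, and in APT1wt no neighbour passed edgeR's test (lowest adjusted p = 0.19, SRSF1), with DGKE at -0.24 (adjusted p = 0.27). Between shAPT1 and APT1wt DGKE was higher in shAPT1 by 0.72 on the log2 scale (edgeR, adjusted p = 0.0023), the same direction as MSI2, and SCPEP1 by 0.34 (adjusted p = 0.019). TRIM25 and SRSF1 were lower there, with log2 differences of -0.23 and -0.17. AKAP1 and MRPS23, the nearest on either side, had changes of -0.08 and 0.03 in shAPT1.

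**Figure D3:**
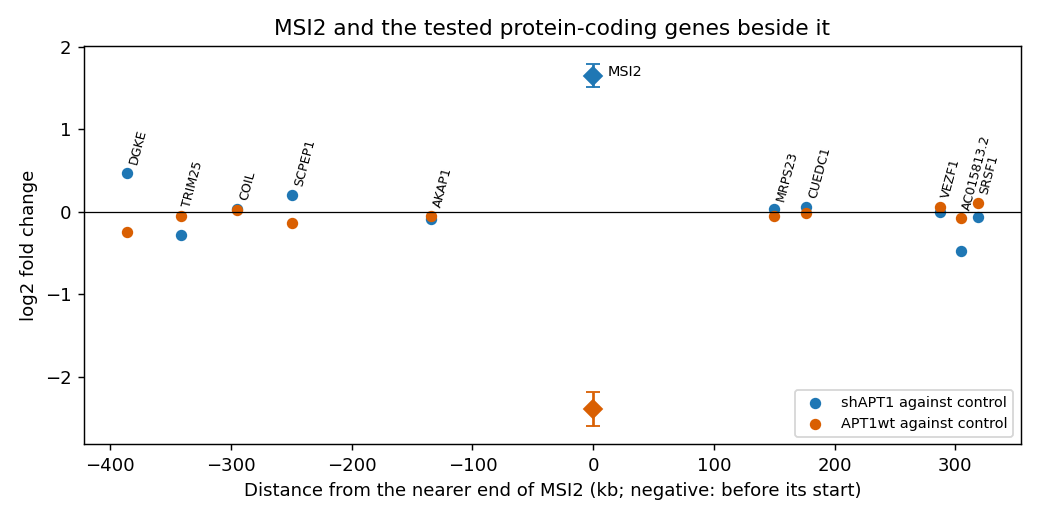
Log2 fold change against control of MSI2 (diamonds with SE) and of the 5 tested protein-coding genes on each side (circles), by distance in kilobases from the nearer end of MSI2. MSI2 stands at 1.65 and -2.39, while its neighbours lie between -0.48 and 0.47.

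MSI1, the other Musashi gene, was close to the limit of detection. The libraries held 6, 4 and 5 reads in control, 5, 0 and 11 in shAPT1, and 6, 9 and 11 in APT1wt, and its TPM was 0 to 1.45. The groups overlapped, and MSI1 did not pass the read filter, so no test was made. A difference in MSI1 was not detectable at this depth. Of 6 genes that mark neural cells, where MSI1 is well known, ELAVL4 was at 0 in all libraries, and TUBB3, a tubulin that cancer cells can also express, made up most of the summed level at 22.8 to 47.3 TPM. The sum of the 6 ranged from 29.3 to 34.2 TPM over the control libraries, from 35.8 to 57.2 over those of shAPT1 and from 30.4 to 39.6 over those of APT1wt. Of all tested genes 24.4% passed in shAPT1 and 23.4% in APT1wt against control, in either direction. In shAPT1 3 of the 4 tested neural markers rose (MAP2, NES and TUBB3) alongside MSI2. The other, GFAP, did not pass, with means of 4.15 TPM in control and 3.13 in shAPT1. MAP2 was low, at means of 0.265 TPM in control and 0.572 in shAPT1. All 3 tested fibroblast markers rose there too (COL1A1, PDGFRB and COL1A2), with the summed level of 5 at 7.41 to 9.36 TPM in control, 10.9 to 17.3 in shAPT1 and 10.4 to 12.5 in APT1wt. Of 3 tested endothelial markers TIE1 rose, and of 2 tested leukocyte markers LCP1 rose and CD74 fell. In APT1wt, where MSI2 fell, 0 of the 4 neural markers passed edgeR's test (at an unadjusted p under 0.05 there was 1, TUBB3), COL1A1, PDGFRB and LCP1 rose, and CD74 and KDR fell. With the length offset TUBB3, COL1A2, TIE1, LCP1 and CD74 kept their calls in shAPT1, and MAP2, NES, COL1A1 and PDGFRB did not. In APT1wt LCP1, CD74 and KDR kept theirs with the offset, and COL1A1 and PDGFRB did not (edgeR, adjusted p = 0.20 and 0.30). The part of these genes in the MSI2 result was not tested.

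NUMB was slightly higher in both engineered groups. Its level was 47.9, 46.1 and 48.6 TPM in control, 53.9, 57.1 and 54.8 in shAPT1, and 57.6, 51.0 and 55.1 in APT1wt. Every engineered library was above every control library, and shAPT1 and APT1wt overlapped. The engineered libraries were above control in RPM too. On that scale 37.7% of all tested genes had no overlap between shAPT1 and control, and 44.2% between APT1wt and control. NUMB rose by 0.24 ± 0.06 on the log2 scale in APT1wt (edgeR, adjusted p = 0.0095), a call lost without control replicate 3 (adjusted p = 0.063), with the length offset (0.10), in the deposited table and on TPM (0.11).

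In shAPT1 the NUMB difference was 0.17 ± 0.06 (edgeR, adjusted p = 0.0499), just under the threshold. The sign held in all 20 alternatives, but the call was lost in 16 of them, with adjusted p up to 0.24. Among these were DESeq2 (0.062), the fit on these 2 groups alone (0.11) and leaving out any 1 library other than shAPT1 replicate 3. Between shAPT1 and APT1wt the log2 difference was -0.07 (edgeR, adjusted p = 0.43). The mean effective length of NUMB was 2244 to 2656 bases over the 9 libraries and overlapped between groups.

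The NUMB level was spread over many transcripts. Protein-coding transcripts, 19 of 32, made up 78.1% ± 3.9 of the NUMB level on the TPM scale for control, 81.1% ± 2.1 for shAPT1 and 82.4% ± 2.8 for APT1wt (SD, n = 3). NUMB-003, which has the 144-base exon and lacks the 33-base exon, stood at 9.88, 11.7 and 11.3 TPM in control, 15.7, 13.2 and 3.42 in shAPT1, and 11.5, 18.1 and 14.9 in APT1wt. NUMB-002 (ENST00000555394.5), with the opposite exon choice, stood at 8.55, 5.65 and 8.44 TPM in control, 12.9, 10.7 and 16.2 in shAPT1, and 8.82, 13.2 and 8.68 in APT1wt. NUMB-002 was above control in every shAPT1 library, but its log2 difference of 0.75 ± 0.23 did not pass (edgeR, adjusted p = 0.21), while DESeq2 called it (0.033). On TPM 19.2% of tested transcripts had no overlap between shAPT1 and control.

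Other coding NUMB transcripts above 0.5 TPM swung between libraries of a group. NUMB-202, with the same coding length as NUMB-003, had 7.85, 4.83 and 13.4 TPM in the shAPT1 libraries, against 7.73, 0.250 and 3.42 TPM in the APT1wt libraries. NUMB-201 and NUMB-203 were low in most libraries and reached 3.83 TPM (NUMB-201, the third APT1wt library), 2.68 TPM (NUMB-203, the first shAPT1 library) and 2.60 TPM (NUMB-203, the second APT1wt library). In the third shAPT1 library NUMB-003 was low and NUMB-202 high, and the form they belong to, at 16.8 TPM, was within its range of 13.5 to 23.6 TPM over the 9 libraries. The files hold no estimate of how surely reads were assigned to such similar transcripts, so that error is not in the tests. NUMB-001, NUMB-004, NUMB-013, NUMB-027 and NUMB-032 (coding), NUMB-005, NUMB-020, NUMB-023 and NUMB-025 (retained intron) and NUMB-024 (noncoding) had group means of 0.549 to 6.04 TPM. None of the 15 tested NUMB transcripts passed edgeR's test. The 17 NUMB transcripts below 0.5 TPM had group means of at most 0.410 TPM.

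Summed by form, 10 NUMB transcripts span both optional exons. The form without the 33-base and with the 144-base exon was the largest in all 9 libraries and averaged 49.4% ± 8.45 of their summed TPM for control, 50.4% ± 7.90 for shAPT1 and 49.4% ± 2.70 for APT1wt (SD, n = 3). The form with the 33-base and without the 144-base exon averaged 25.1% ± 7.28 in control, 36.4% ± 4.88 in shAPT1 and 30.8% ± 8.98 in APT1wt (SD, n = 3). Its shAPT1 libraries, at 37.8%, 31.0% and 40.5%, were above the control libraries, at 29.6%, 16.7% and 28.9%. How often forms of other genes separate so was not counted. The forms with both exons and with neither averaged at most 16.3% in any group.

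**Figure D4:**
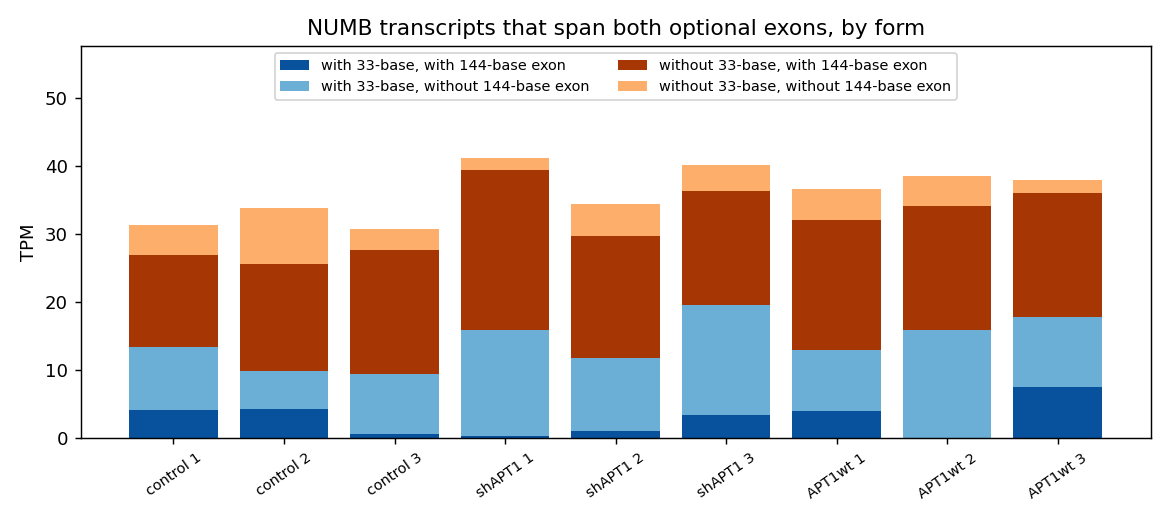
TPM of the 10 NUMB transcripts that span both optional exons, stacked by form in each of the 9 libraries; colours give the presence of the 33-base and the 144-base exon. The form without the 33-base and with the 144-base exon holds about as large a share in each group, with means of 49.4% in control, 50.4% in shAPT1 and 49.4% in APT1wt.

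Inclusion of the 33-base exon, as a share of all NUMB TPM, was 35.9%, 24.7% and 29.2% in control, 35.7%, 34.3% and 40.4% in shAPT1, and 34.3%, 41.2% and 43.4% in APT1wt. Both engineered groups overlapped with control through its first library (exact permutation p = 0.3 and 0.2). Inclusion of the 144-base exon was 37.0%, 43.4% and 39.3% in control, 44.2%, 33.8% and 36.9% in shAPT1, and 40.9%, 36.1% and 47.0% in APT1wt (exact permutation p = 0.7 against control for both). Counted among the 12 transcripts that span that exon, a choice made after seeing the data, the difference of shAPT1 from control was -5.54 percentage points, without overlap (exact permutation p = 0.1). Such separation was not counted for exons of other genes.

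The transcript share test gave no call among members. Of 22 tested member transcripts 0 passed edgeR's diffSpliceDGE in each of the 3 comparisons, beside 0.334%, 0.259% and 0.313% of 47934 tested transcripts. At an unadjusted p under 0.05 there were 1, 0 and 1, each of them NUMB-201, and limma's diffSplice also called 0. On simulated data this test found only a small part of the changed shares and also called unchanged transcripts that varied more than the others of their gene. Its counts, those over all transcripts included, are therefore not read as evidence for or against a change in share.

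NUMBL did not pass in either comparison with control. Its level was 18.5, 19.8 and 22.6 TPM in control, 17.4, 15.8 and 25.1 in shAPT1, and 14.96, 14.94 and 15.28 in APT1wt. APT1wt was below every control library and every shAPT1 library, and shAPT1 overlapped with control. In RPM APT1wt was below both groups too. On that scale 44.2% of all tested genes had no overlap between APT1wt and control, and 39.6% between shAPT1 and APT1wt. The log2 difference was -0.02 ± 0.10 in shAPT1 (edgeR, adjusted p = 0.92) and -0.26 ± 0.10 in APT1wt (adjusted p = 0.089). With only APT1wt and control in the fit the APT1wt difference was called (adjusted p = 0.029), as it was without shAPT1 replicate 3 (0.0495). Between shAPT1 and APT1wt the log2 difference was 0.24 ± 0.10 (edgeR, adjusted p = 0.11), and it was called without shAPT1 replicate 2 (0.046).

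NUMBL TPM came mainly from NUMBL-008, NUMBL-002 and NUMBL-001, all coding. NUMBL-008, of 834 bases, was at 6.36, 7.07 and 4.74 TPM in control, 3.48, 4.69 and 7.08 in shAPT1, and 3.55, 2.83 and 2.35 in APT1wt. Its APT1wt libraries were all below control, and the log2 difference was -1.04 ± 0.35 (edgeR, adjusted p = 0.27). On TPM 20.5% of tested transcripts had no overlap between APT1wt and control. NUMBL-001, the longest at 3561 bases, had group means of 3.62 (control), 4.29 (shAPT1) and 3.57 TPM (APT1wt). NUMBL-010, NUMBL-007, NUMBL-011 and NUMBL-004 had group means of 0.188 to 2.30 TPM, and none of the 5 tested NUMBL transcripts passed.

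In order of level, NUMB was the highest member in all groups, then NUMBL, MSI2 and MSI1. The order held in every library, since the lowest NUMBL library, at 14.9 TPM, was above the highest MSI2 library, at 10.8, and MSI2 was above MSI1 in each.

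**Figure D5:**
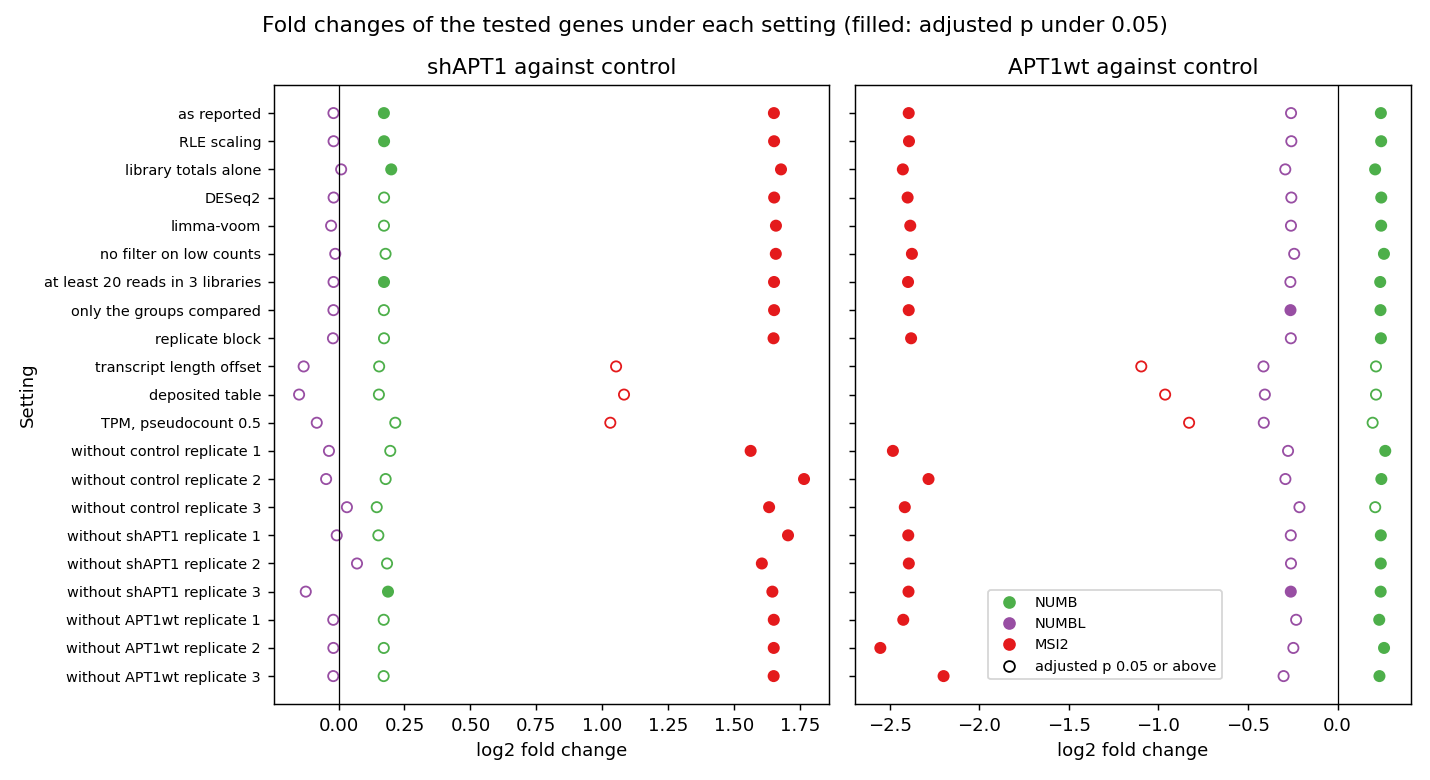
Log2 fold change against control of NUMB, NUMBL and MSI2 as reported and under 20 alternative settings; filled circles have an adjusted p under 0.05. MSI2 keeps its sign throughout but is open, at 1.03 to 1.08 in shAPT1 and -1.10 to -0.83 in APT1wt, in 3 settings. These are the length offset, TPM and the deposited table, whose scaling is not given.

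Genes that act with NUMB in endocytosis moved in both directions. Of 13, 1 rose and 3 fell in shAPT1, and 1 rose and 2 fell in APT1wt, with median log2 changes of -0.05 and -0.01 beside 0.00 over all tested genes. Over all tested genes 24.4% passed in shAPT1 and 23.4% in APT1wt, in either direction. These shares stand beside the counts of this list and of each list below, and no list was tested as a set. EHD4, an endocytic recycling protein that binds NUMB, fell by 0.47 ± 0.06 in shAPT1 (edgeR, adjusted p = 0.00012). AP2S1, a subunit of the clathrin adaptor AP2, and EPN1, an epsin, fell by 0.32 and by 0.35 there. AAK1, a kinase that phosphorylates NUMB and AP2, fell by 0.30 ± 0.06 in APT1wt (edgeR, adjusted p = 0.0037) and had a log2 change of -0.08 in shAPT1 (adjusted p = 0.42).

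Of 8 genes of NUMB turnover and the MDM2 pathway, 2 rose and 1 fell in shAPT1, and 1 rose and 1 fell in APT1wt (median log2 changes 0.12 and 0.12). LNX2, of a ubiquitin ligase family that binds NUMB, rose by 0.34 and 0.95 on the log2 scale, and ITCH, another ligase, rose by 0.23 in shAPT1. CDKN1A, which encodes the cell cycle inhibitor p21, fell from 59.7 ± 6.8 TPM in control to 30.0 ± 7.2 in shAPT1 and 39.7 ± 3.7 in APT1wt (SD, n = 3). MDM2, a ubiquitin ligase whose protein NUMB can bind, did not pass in either comparison, with log2 changes of 0.09 in shAPT1 and 0.04 in APT1wt.

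Of 10 polarity and kinase genes that act on NUMB, 2 rose and 0 fell in shAPT1, and 3 rose and 1 fell in APT1wt (median log2 changes 0.14 and 0.15). PRKCZ, an atypical protein kinase C, rose by 0.92 and 1.20, and LLGL2, a basal polarity protein, by 0.96 and 1.07 on the log2 scale. With the length offset the PRKCZ change in shAPT1 was 0.61 and did not pass (edgeR, adjusted p = 0.23). PARD6B, an atypical kinase partner, rose by 0.66 in APT1wt, and PRKAA2, a catalytic subunit of AMP-activated kinase, fell by 0.66.

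Of 11 tested genes reported as Musashi mRNA targets, NUMB among them, 3 rose and 2 fell in shAPT1, and 3 rose and 2 fell in APT1wt (median log2 changes 0.12 and 0.07). JAG1, a Notch ligand, rose by 1.05 ± 0.08 in shAPT1 (edgeR, adjusted p = 8.6e-07) and had a log2 change of -0.23 in APT1wt (adjusted p = 0.075). LRIG1, a feedback inhibitor of receptor kinases, rose by 0.34 and 0.71, and SMAD3, a TGF-beta signal carrier, fell by 0.43 in shAPT1. Of 6 tested translation partners of Musashi, PABPC1, the poly(A)-binding protein, rose by 0.31 and 0.48, and EIF4G1, an initiation factor, fell by 0.22 in shAPT1. GSPT1 and EIF4E did not pass, with log2 changes of 0.14 and -0.16 in shAPT1.

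Of 12 splicing regulators reported to act on NUMB exons, 2 rose and 2 fell in shAPT1, and 3 rose and 1 fell in APT1wt (median log2 changes 0.01 and 0.17). Beside them, 24.4% and 23.4% of all tested genes passed in these comparisons. RBM47 rose by 0.87 and 0.37, and QKI by 0.51 and 0.43 on the log2 scale. RBM10 fell by 0.38 and by 0.43, and PTBP1 fell by 0.32 in shAPT1, where with the length offset its change was -0.19 and did not pass (edgeR, adjusted p = 0.31). Of 12 Notch receptor and secretase genes, 3 rose and 1 fell in shAPT1, and 2 rose and 2 fell in APT1wt (median log2 changes -0.06 and 0.02). NOTCH1 fell by 0.76 ± 0.07 in shAPT1 and by 0.31 ± 0.07 in APT1wt (edgeR, adjusted p = 5.9e-06 and 0.0074). NOTCH2 rose by 0.28 and 0.48, and ADAM10, a sheddase, by 0.50 and 0.21.

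The calls in these 7 lists depended in part on the processing, while no called gene changed sign in any of the 20 alternatives. Of 23 list genes called in shAPT1 against control, 17 were kept with the length offset, 17 with the deposited table and 13 on TPM. Of 22 called in APT1wt against control, 15, 15 and 10 were kept. Besides PRKCZ and PTBP1, the offset left LNX2 at 0.34 (edgeR, adjusted p = 0.064) and EIF4G1 at -0.20 (adjusted p = 0.051) in shAPT1, and ADAM10 at 0.18 (adjusted p = 0.12) and PARD6B at 0.47 (adjusted p = 0.0504) in APT1wt. Without 1 library at a time, 18 to 23 calls were kept in shAPT1 and 16 to 22 in APT1wt. ITCH lost its call in shAPT1 without any 1 control library, LNX2 without control replicate 1 or 2, EIF4G1 without control replicate 2 or 3, RBM10 without control replicate 3, and LRIG1 without control replicate 1 or shAPT1 replicate 2. In APT1wt RBM47 lost its call without control replicate 2 or 3 or APT1wt replicate 2 or 3, and ADAM10 without any 1 of 6 libraries.

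Genes most like each tested member were ranked by Pearson correlation of log2 RPM over the 9 libraries, among protein-coding genes of at least 5 TPM. For MSI2 they were CRIM1 (r = 0.986), NBDY (0.981) and SLC30A9 (0.976). The mean level of CRIM1 was 133 TPM for control, against 175 TPM for shAPT1 and 104 TPM for APT1wt, a smaller span than that of MSI2-001. For NUMB they were IFT88 (0.988), SPG20 (0.979) and PROSER1 (0.976), and for NUMBL MAP3K10 (0.905), CDKN2C (0.904) and FKBP4 (0.877). These values describe the top of 9869 to 9870 candidates over libraries that share 3 groups, and carry no test.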

How the data were processed

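RNA of 9 MDA-MB-231 libraries was analysed. Salmon, FastQC, DESeq2 and the build GRCh38.p10 are named in the submitters' processing notes, without versions. The authors deposited estimated counts, TPM, length and effective length per transcript, and a gene table of scaled signal whose scaling is not given in the sources used here. Estimated counts were summed by gene and rounded. They were fitted over all 9 libraries with edgeR 4.0.16 (TMM, filterByExpr with a minimum of 10 reads, quasi-likelihood, Benjamini-Hochberg, R 4.3.3). Transcripts were fitted alike, shares with diffSpliceDGE, and log2 mean effective length with limma 3.58.1. DESeq2 1.42.0 was an alternative. Annotation came from GENCODE 29, in which 4 of the NUMB transcripts carry another gene's name.

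Tests were checked on simulated data. The gene, transcript and length tests recovered known changes with few false calls. Those changes were planted only in genes and transcripts above a set read level, and length changes only in genes of small spread. Power for features with fewer reads or a larger spread, the MSI2 length among them, was not checked. The share test did not: it missed most changed shares and called transcripts noisier than the others of their gene. It was kept as designed, and limma on log2 ratios of each transcript to the rest of its gene, which made few false calls but also found few changes, was added after this was seen.

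Members and gene lists were chosen with earlier results of these data known. Named were the 4 genes, member transcripts of at least 0.5 TPM in a group, up to 4 genes per list with the lowest adjusted p against control, MDM2, CDKN1A, AAK1, PABPC1, NOTCH1 and LYPLA1, and the 3 most alike genes; some genes under this rule are not reported here. Alternatives changed scaling, tool, filter, groups, pseudocount, length offset, block and single libraries.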

Additional observations from a re-analysis of the deposited data

How the results depend on the processing

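Of the 4 members, 2 passed in shAPT1 against control, but 1 under DESeq2, limma-voom, no filter, only the groups compared and the replicate block, and 0 with the length offset, the deposited table and TPM. In APT1wt against control the 2 became 0 with the same 3 settings. Without 1 library at a time the counts were 1 to 2, 1 to 3 and 1 to 2 in the 3 comparisons. Member transcripts called went from 1 to 2 under DESeq2 in each comparison and under TPM with 0.1 added in both that hold APT1wt, and from 0 to 1 without 1 library in shAPT1 against control. Same-numbered libraries of different groups showed little correlation: of 9 such pairs 1 correlated over 0.1 (range -0.05 to 0.10), and 5 had their best partner under the same number. With 3 libraries to a group, this check cannot exclude pairing by number. Among member genes the block moved only the NUMB call in shAPT1. Among list genes it also removed the call of AP2B1 in APT1wt, and those of IKZF2 and SRSF1 between shAPT1 and APT1wt.

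Exon shares rose with narrower denominators, as they must where the transcripts with the exon all stay counted. Shares of reads change the weighting and not the transcripts counted. In control, shAPT1 and APT1wt the 33-base exon was at 38.6%, 45.4% and 48.1% of coding transcripts and 38.3%, 44.8% and 47.1% of spanning ones. The 144-base exon was at 54.7%, 50.9% and 56.0% of reads, 51.0%, 47.2% and 50.3% of coding and 55.5%, 50.0% and 56.2% of spanning transcripts. Counted in the 3 transcripts that code it, the MSI2 exon was at 73.2%, 87.3% and 39.4% of reads and 64.5%, 84.7% and 75.7% of coding transcripts. Counted in 4, with the noncoding MSI2-013, it was at 75.7%, 88.2% and 41.3% of reads, 39.6%, 58.6% and 10.8% of TPM, and 68.5%, 86.4% and 75.7% of spanning transcripts. No further NUMB transcript holds either NUMB exon. Spanning denominators and the count of 4 were chosen after seeing the data. The cause of the differences between groups in these shares was not tested. Of 840 counts of list genes called, 171 moved by over 1.5 times. Depth limits MSI1 and MSI2 in APT1wt, with 14.0 to 18.0 MSI2 reads per library.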
